A study of Mus musculus with 2 samples.

Results

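The genes described here are 9 chemoattractant receptors that guide T cells into tissues, Cxcr3, Cxcr6, Ccr2, Ccr4, Ccr6, Ccr8, Ccr9, Ccr10 and Gpr15. They were taken by symbol from a table of 24081 genes, and all 9 were found. The RNA came from regulatory T cells (Treg cells), a CD4+ lineage that depends on the transcription factor Foxp3 and holds immune responses in check. Lymph nodes and spleen of C57BL/6 mice of 5 weeks were the source, and the sort took CD4+ YFP+ cells. The KO library came from Foxp3cre/wt mice with both alleles of a SUMOylation pathway gene floxed, and the WT library from Foxp3cre/wt mice with 1 floxed allele of it. Mice of both groups thus carry the Foxp3-driven Cre recombinase on 1 Foxp3 allele and keep a wild-type Foxp3 allele. Foxp3 is X-linked, so such heterozygous females also hold Treg cells that never express Cre, and the sort takes the YFP+ ones. Cells of 5 to 10 mice were pooled for a library, and each group has 1 library. Differences therefore rest on no replicates and carry no p-value. The intervals are exact 95% intervals for counting error only, since reads without molecular identifiers are not independent molecules. Both samples bear a wild-type genotype label, so the groups, and with them all directions, were taken from the sample titles.

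Chemoattractant receptors are G protein-coupled receptors that sense a gradient of chemokine, slow a rolling lymphocyte through integrin activation and draw it into tissue. Resting Treg cells recirculate through lymphoid organs with Ccr7. Effector Treg cells take up receptors for other tissues. Cxcr3 binds interferon-induced chemokines of type 1 inflammation, Ccr4 and Ccr8 are linked with skin and other barrier sites, and Ccr9 and Gpr15 with the small intestine and the colon. Ccr6 follows Ccl20 to mucosa and is shared with Th17 cells, Cxcr6 binds Cxcl16, Ccr2 binds monocyte chemoattractants such as Ccl2, and Ccr10 binds the epithelial chemokines Ccl27 and Ccl28.

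The promoters of 4 receptors are shown because they span the range of differences described below. Cxcr3 and Ccr4 were among the genes with the lowest KO over WT ratios, Cxcr6 differed less, and Ccr9, which lies next to Cxcr6, had more RNA in the KO library. The sequences are RefSeq's on GRCm38.p6, read 5′ to 3′ on the gene's strand. Each begins 250 bases before the RefSeq start and stops at the first base within that window that GENCODE M21 places in an exon of the gene. For Ccr4 and Ccr9 this stretch lies inside the annotated gene, which also has transcripts that begin farther upstream. Capitals mark matches, on either strand, to motifs of 6 factor families. The letters searched were TGANTCA for AP-1 and TGTGGT for RUNX factors. For ETS factors they were AGGAAG and for GATA factors AGATAA. The forkhead motif was TGTTTAC, and the T-box motif of T-bet was AGGTGTGA.
Cxcr3, chrX:101734270-101734397, minus strand: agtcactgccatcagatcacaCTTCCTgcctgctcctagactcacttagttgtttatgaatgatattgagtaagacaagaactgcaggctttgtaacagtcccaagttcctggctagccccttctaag
Ccr4, chr9:114496563-114496794, minus strand: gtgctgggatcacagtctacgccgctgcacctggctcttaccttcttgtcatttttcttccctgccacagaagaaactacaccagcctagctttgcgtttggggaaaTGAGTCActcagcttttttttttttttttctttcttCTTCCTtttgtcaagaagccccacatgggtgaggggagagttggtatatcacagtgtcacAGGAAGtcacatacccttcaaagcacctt
Cxcr6, chr9:123806227-123806474, plus strand: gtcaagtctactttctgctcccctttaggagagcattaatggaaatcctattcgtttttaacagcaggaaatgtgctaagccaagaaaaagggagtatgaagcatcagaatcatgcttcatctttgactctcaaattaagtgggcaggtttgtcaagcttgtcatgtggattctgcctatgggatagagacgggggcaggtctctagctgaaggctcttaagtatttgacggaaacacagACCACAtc
Ccr9, chr9:123766961-123767168, plus strand: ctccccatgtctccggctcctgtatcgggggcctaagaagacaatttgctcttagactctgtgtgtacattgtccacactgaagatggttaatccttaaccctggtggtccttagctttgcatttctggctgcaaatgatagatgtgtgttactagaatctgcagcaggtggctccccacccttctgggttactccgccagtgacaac

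RefSeq held 9 promoters for 8 of the receptors, 2 of them for Ccr6. Over the full 250 bases, AP-1 letters stood in 2 of the 9 (Ccr4 and Gpr15), against 6.7% of all 32851 promoters. RUNX letters stood in 3 (Cxcr3, Cxcr6 and Gpr15), against 14.0% of all. ETS letters stood in 5, against 29.5%, and GATA letters in 3, against 10.0%. Forkhead and T-box letters matched in none, and 3.2% and 1.1% of all promoters hold them. No match of one motif overlapped that of another. The only matches that overlapped were a pair of ETS matches in Ccr6. These are matches of letters, not measured binding, and the motifs were chosen after the sequences had been seen.

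Most homing receptors had far fewer reads in the KO library, which was the deeper one, with 23789264 reads assigned to genes against 11662867 in the WT library. Of the 9 receptors, 8 reached the floor for a ratio, a mean of 20 reads over both libraries. Of these 8, 6 were lower in KO by 2-fold or more and none was 2-fold higher. One of the 6, Gpr15, passed the floor only through the WT library, where it was higher (9 reads in KO, 68 in WT). Among all 10899 genes over the floor, 2.08% were at least 2-fold lower and 1.59% at least 2-fold higher. These are 227 and 173 genes, which became 234 and 108 after removal of a trend of the ratio with GC content and transcript length. Genes with a mean of 100 to 1000 reads, where most of the receptors lie, were at least 2-fold lower in 1.65% of cases, and those with 20 to 100 reads in 7.14%. The median log2 ratio of the 8 receptors was -2.00, against 0.01 for all genes over the floor. Log2 ratios are KO over WT and add a pseudocount of 1 to the scaled counts, while folds and their intervals add none. In bulk RNA, fewer cells that carry a receptor and less of its RNA in each cell cannot be told apart.

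Cxcr3, the receptor for Cxcl9, Cxcl10 and Cxcl11, had 64 reads in the KO library and 546 in the WT library, which is 2.69 and 46.8 RPM (reads per 1000000 reads assigned to genes). The counting intervals lay far apart, at 2.07 to 3.44 RPM in KO and 43.0 to 50.9 in WT. It was 16.5-fold lower in the KO library (12.7 to 21.7), with a log2 ratio of -4.02, the fourth lowest among the 10899 genes with enough reads for a ratio. The gene lies on chromosome X, 101731535 to 101734269 (mm10), with no exon of another annotated gene over it.

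Ccr4, which binds Ccl17 and Ccl22, took the most reads of the 9 in the WT library but not in the KO library. It had 178 reads in the KO library and 1058 in the WT library, which is 7.48 and 90.7 RPM. The difference was 11.5-fold (9.80 to 13.5), with a log2 ratio of -3.51. Its gene lies on chromosome 9, 114490316 to 114504916. The intervals of the Cxcr3 and Ccr4 folds overlap, and the difference between the folds was not tested.

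Gpr15 had 9 reads in the KO library and 68 in the WT library, or 0.378 and 5.83 RPM. That is 14.6-fold lower in KO, with a wide interval of 7.26 to 33.3 that holds the folds of both Cxcr3 and Ccr4. Its single exon (chromosome 16, 58717433 to 58719070) shares 12.5% of its length with exons of Cpox on the opposite strand. Cpox, a haem synthesis gene, had 704 and 495 reads in the KO and WT libraries and a log2 ratio of -0.44. The sources used here do not give the strand setting, so the part of reads assigned to either gene over that stretch is uncertain.

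Ccr2 had 83 reads in the KO library and 238 in the WT library, or 3.49 and 20.4 RPM. It was 5.54-fold lower (4.30 to 7.21). Monocytes also carry this receptor, and monocyte and macrophage markers were present in both libraries. The 4 markers found of a list of 5 summed to 362 RPM in the KO library and 410 in the WT library, with none at 0. Csf1r, the most abundant of them, stood at 229 RPM in KO and 274 in WT, and Lyz2 at 123 and 126. Cd14 stood at 2.44 and 2.92 RPM, and Itgam, higher in KO, at 8.24 and 7.20. The part of such cells in the Ccr2 result was not tested.

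Ccr6 and Cxcr6 differed by smaller factors. Ccr6 had 172 reads in the KO library and 260 in the WT library (7.23 and 22.3 RPM), 2.92-fold lower (2.40 to 3.56). B cells carry Ccr6 too, and the 5 B cell markers, all detected in both libraries, summed to 88.8 RPM in KO and 116 in WT. Their part in the Ccr6 result was not tested. Cxcr6 had 74 reads in the KO library and 99 in the WT library (3.11 and 8.49 RPM), 2.59-fold lower (1.89 to 3.54), so the lower bound of its interval falls under 2-fold. The folds of Ccr6 and Cxcr6 lay under the whole intervals of Ccr2, Gpr15, Ccr4 and Cxcr3, while their own intervals overlap.

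**Figure D1:**
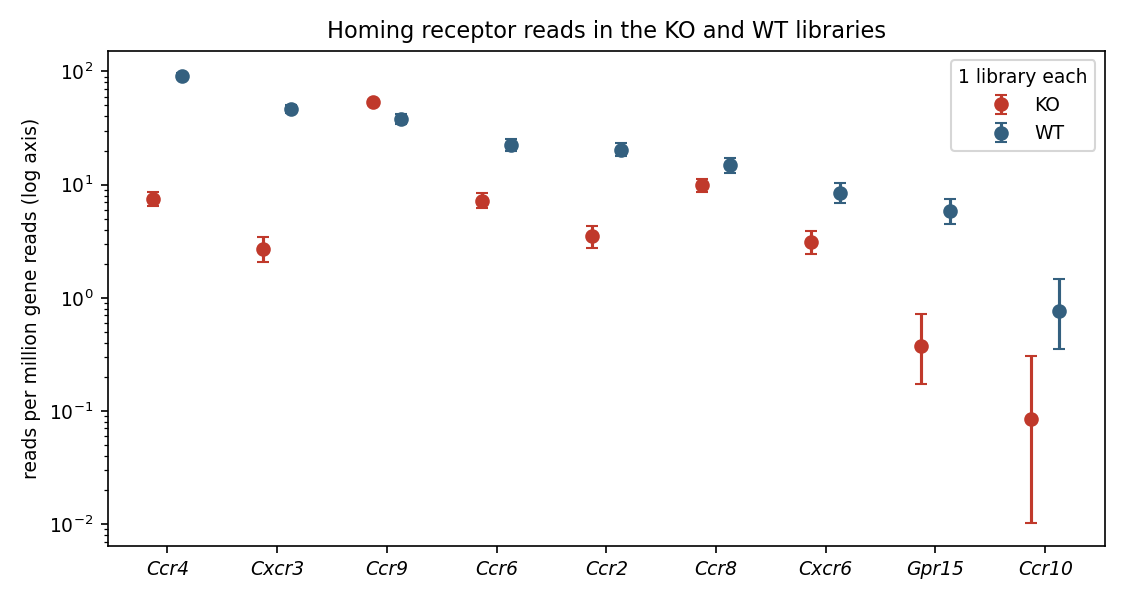
RPM (reads per 1000000 gene reads, log axis) of the 9 receptors in the KO library (left point of each pair) and the WT library (right point), with exact 95% counting intervals and 1 library per group. Ccr9 alone lies higher in KO, at 53.2 against 38.1 RPM, while Cxcr3 lies at 2.69 against 46.8.

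Ccr8, a receptor for Ccl1 that marks Treg cells of skin and of tumours, differed little. It had 235 reads in the KO library and 173 in the WT library, or 9.88 and 14.8 RPM. This is 1.42-fold lower, and the whole interval, 1.16 to 1.74, lies above 1. Its log2 ratio of -0.51 missed 1.5-fold, and with the GC and length trend removed it was -0.60, just past 1.5-fold. Ccr9, the receptor for the small-intestinal and thymic chemokine Ccl25, went the other way. It had 1265 reads in the KO library and 444 in the WT library, or 53.2 and 38.1 RPM. The ratio was 1.47-fold higher in KO (1.32 to 1.65), and its log2 value of 0.56 became 0.65, past 1.5-fold, with the trend removed. Over all genes above the floor, 7.43% were at least 1.5-fold higher, so a ratio of this size is far more common than those of Cxcr3 or Ccr4. Of those genes, 91.8% had a log2 ratio at or below that of Ccr9. Plasmacytoid dendritic cells also carry Ccr9, and their marker Siglech stood at 9.79 RPM in KO and 9.43 in WT. Their part in the Ccr9 result was not tested.

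Ccr10 was close to the limit of detection, with 2 reads in the KO library and 9 in the WT library. The ratio of 0.115 has an interval of 0.0121 to 0.555, and no call was made under the floor. For scale, a gene with no read could still stand at up to 0.126 RPM in the KO library and 0.257 in the WT library (3 counts each). Ccr10 stood at 0.0841 and 0.772 RPM.

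**Figure D2:**
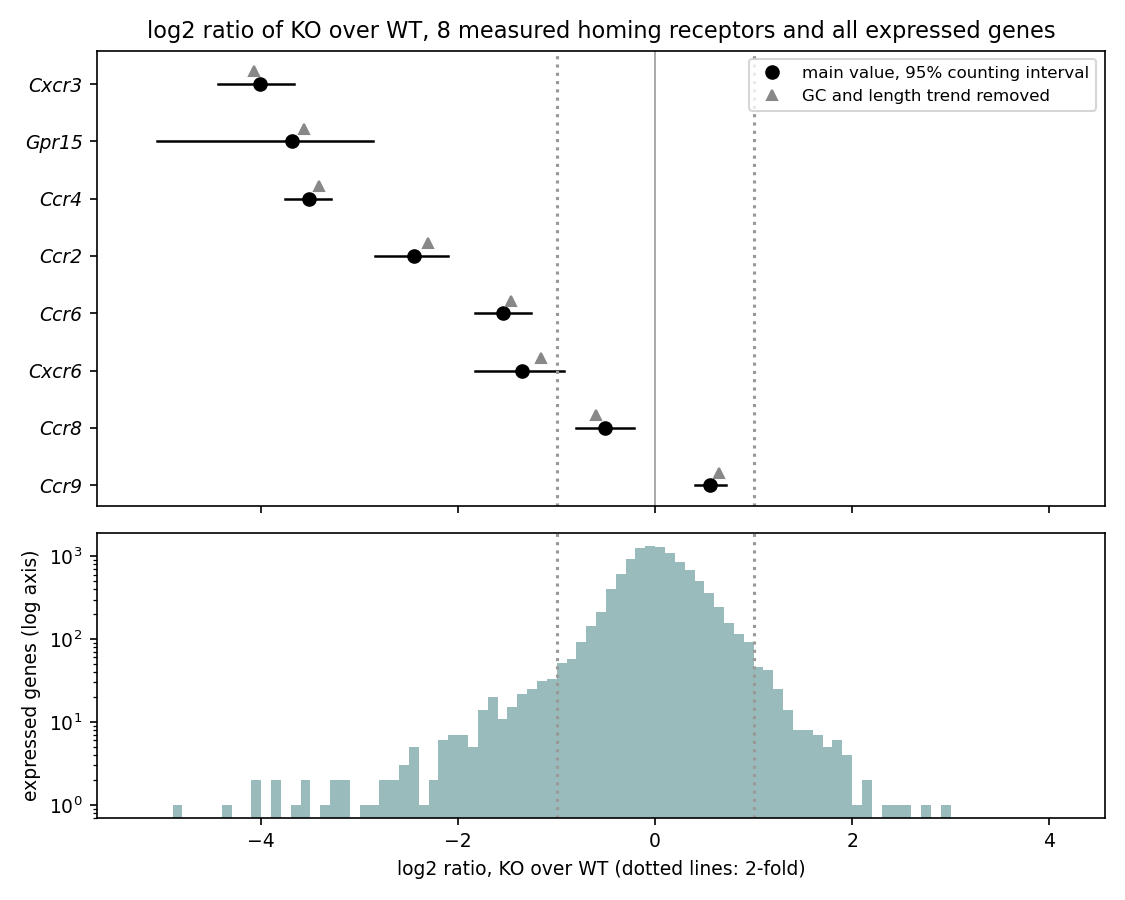
Upper panel, log2 ratio of KO over WT for the 8 measured receptors, with exact 95% counting intervals (lines, no pseudocount) and the value after removal of the GC and length trend (triangles). Lower panel, the same ratio for all 10899 genes over the floor (log count axis). Dotted lines mark 2-fold; Cxcr3, Gpr15 and Ccr4 lie in the sparse left tail, at -4.02, -3.69 and -3.51.

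The make-up of receptor reads differed between the libraries. Shares of these reads do not depend on the scaling, but they are not corrected for transcript length. The principal transcript has 5197 bases for Ccr9, 2805 for Ccr4, 1731 for Cxcr3 and 1175 for Ccr8. A share of reads is thus not a share of transcripts, and levels per kilobase are given below. Reads to all 9 receptors came to 2082 in the KO library and 2895 in the WT library, which is 2.69-fold lower per unit of scaled depth (2.54 to 2.85). Ccr9 took 60.8% of these reads in KO (Clopper-Pearson interval 58.6 to 62.9) and 15.3% in WT (14.0 to 16.7). Ccr4 took 8.55% in KO (7.38 to 9.83) and 36.5% in WT (34.8 to 38.3), and Cxcr3 3.07% (2.38 to 3.91) and 18.9% (17.4 to 20.3). Ccr8 took 11.3% in KO and 5.98% in WT. Cxcr6 held about the same share, 3.55% in KO (2.80 to 4.44) and 3.42% in WT (2.79 to 4.15), and the intervals overlap widely. The KO library thus had 7.11 reads of Ccr9 for each read of Ccr4, against 0.420 in the WT library. Without Ccr9, the other 8 receptors together were 5.80-fold lower in KO (5.36 to 6.29).

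**Figure D3:**
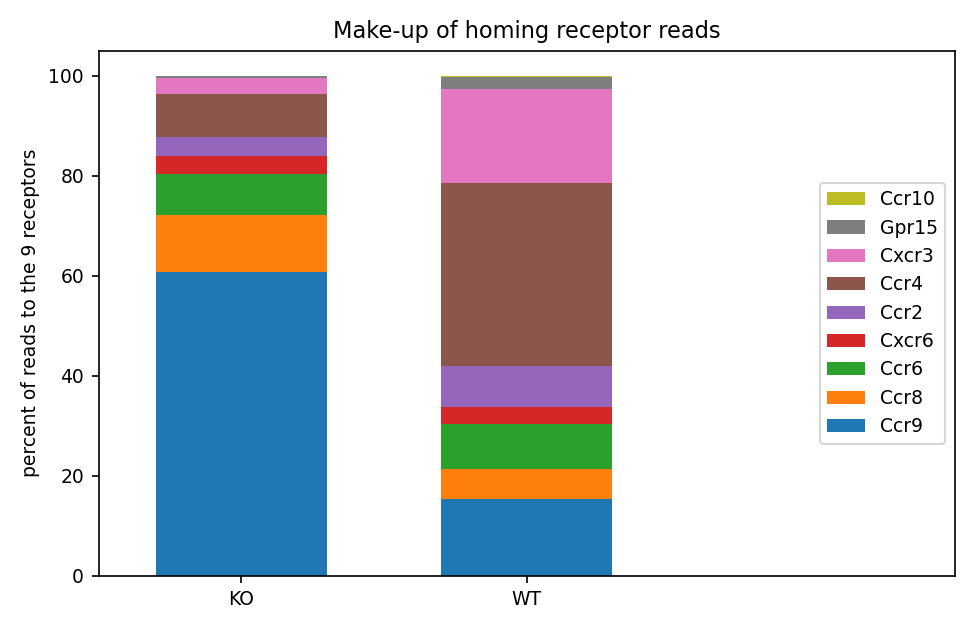
Percent of the reads to the 9 receptors that each receptor took, in the KO library (left, 2082 reads) and the WT library (right, 2895 reads). Shares are not corrected for transcript length. Ccr9 takes 60.8% in KO and 15.3% in WT, and Ccr4 8.55% in KO and 36.5% in WT.

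Levels of different receptors were compared as RPM per kilobase of the principal transcript. In the KO library the order was Ccr9 (10.2), Ccr8 (8.41), Ccr6 (4.12), Ccr4 (2.67), Cxcr6 (1.64), Cxcr3 (1.55), Ccr2 (0.609), Gpr15 (0.231) and Ccr10 (0.0487). Counting intervals of neighbours in that order overlapped for Cxcr6 and Cxcr3 and for Gpr15 and Ccr10. In the WT library it was Ccr4 (32.3), Cxcr3 (27.0), Ccr6 (12.7), Ccr8 (12.6), Ccr9 (7.33), Cxcr6 (4.47), Ccr2 (3.56), Gpr15 (3.56) and Ccr10 (0.447). There the intervals overlapped for Ccr6 and Ccr8, for Cxcr6 and Ccr2, and for Ccr2 and Gpr15. Cxcr3, sixth in KO, was second in WT on this length. The place of Ccr9 depends on the length used, since its principal transcript has 5197 bases and its annotated exons together 10260. Per kilobase of all annotated exons, a length tried after these values were seen, Ccr9 stood at 5.18 in KO, second after Ccr8 (8.41), and at 3.71 in WT, the sixth. On that length Ccr4 (29.3) and Cxcr3 (27.0) had overlapping intervals in WT.

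Neighbouring genes did not always share a direction. Of the 9 genes, 5 lie on chromosome 9, and Cxcr6 and Ccr9 are neighbours on the plus strand, 22.1 kb apart, with log2 ratios of -1.36 and 0.56. Cxcr6 sits within Fyco1, a gene for an autophagosome transport adaptor on the opposite strand, whose exons do not touch those of Cxcr6. Fyco1 had 1766 reads in the KO library and 601 in the WT library (log2 ratio 0.60). Ccr3, at 70.3 kb from Ccr2, had a log2 ratio of -0.43, and Cx3cr1, next to Ccr8, one of -0.38. Nhsl2, next to Cxcr3, had 21 and 34 reads in KO and WT (-1.59). Among the nearest protein-coding neighbours, 20 that are not themselves among the 9 were measured, with a median log2 ratio of -0.17. Of these, 2 were at least 2-fold lower, Nhsl2 among them, and none 2-fold higher. Over all genes above the floor, 2.08% were at least 2-fold lower and 1.59% at least 2-fold higher. Both lower neighbours had a mean of 20 to 100 reads, where 7.14% of genes were at least 2-fold lower. For Ccr9, 18.8% of the annotated exon length overlaps a transcript on the opposite strand that was not analysed here.

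Other chemokine receptors showed a mixed picture. Of 15 on the list, 8 were over the floor, with 3 at least 2-fold lower, against 2.08% of all genes over the floor, none higher, and a median log2 ratio of -0.41. The follicle homing receptor Cxcr5 was lower by 3.23-fold (2.89 to 3.63), with 489 reads in KO and 818 in WT. Ccrl2, which binds the chemoattractant chemerin, was 2.42-fold lower (1.72 to 3.41), with 64 and 80 reads. Ccr3 and Cx3cr1 had the values above, Cxcr2 had 31 reads in KO and 16 in WT (log2 ratio 0.00), and Cxcr4, which retains cells in bone marrow, was at 0.19. Ccr7, the receptor for entry into lymph nodes, was at 0.47. B cells also carry Cxcr5, and their markers are given above.

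Genes of lymphoid recirculation had log2 ratios on the side of Ccr9, above 0, where many genes lie. Over all genes above the floor, the median log2 ratio was 0.01 and the standard deviation 0.46. All 6 on the list were measured and had log2 ratios above 0, with a median of 0.26, and 1 of them was at least 1.5-fold higher, against 7.43% of all genes over the floor. That one was Klf2, a transcription factor that drives S1pr1, at 0.77 and at 0.41, under 1.5-fold, with the GC trend removed. S1pr1, the receptor for egress into lymph, was at 0.30 and Cd69, which opposes S1pr1, at 0.19, and Ccr7 and Cxcr4 had the values above. All 6 were also above 0 with total-count scaling, where the lowest was 0.11.

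Among 18 further chemoattractant receptors for lipids, sterols and peptides, 14 were measured. At least 1.5-fold lower were 3, against 5.51% of all genes over the floor, none was 1.5-fold higher, and the median was -0.14. The 6 with the widest ratios were the lysophospholipid receptor Gpr55 (-1.13), the prostaglandin E2 receptor Ptger2 (-0.94), the formyl peptide receptor Fpr1 (-0.63, and -0.53 with the GC trend removed), the oxysterol receptor Gpr183 (-0.52), Gpr18 (-0.38) and S1pr1 (0.30). Gpr183 had 902 reads in KO and 669 in WT.

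The machinery that chemokine receptors share did not follow the receptors. Of 28 genes for G proteins, PI3Kγ and the integrin activation pathway, 27 were measured, with 1 at least 1.5-fold lower, 3 higher and a median of 0.11. These counts are near the 5.51% and 7.43% of all genes over the floor. Pik3r5, a PI3Kγ adaptor, was at 0.63, Gnai2, the main inhibitory G protein α subunit of lymphocytes, at 0.59 and the exchange factor Arhgef1 at 0.59. All 3 dropped under 1.5-fold with total-count scaling and with the GC trend removed. Gng2, the lower one, was at -0.59 and missed 1.5-fold with a pseudocount of 5 and, at -0.46, with the GC trend removed. Gnb2 and Plcb3 were at 0.42 each. Of 13 measured genes of receptor desensitisation, none passed 1.5-fold in either direction, with a median of 0.14. For so few genes this is also near the 5.51% lower and 7.43% higher over all genes above the floor. The widest were the kinases Grk5 and Grk6 (0.43 each), Rgs19 (0.35), Rgs10 (0.28), Adrbk1 (0.25), which encodes GRK2, and Rgs14 (0.23).

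Ligand RNA for these receptors was scarce in the sorted cells. Of 20 ligand genes, 6 passed the floor, with 2 at least 1.5-fold lower and none higher, against 5.51% and 7.43% of all genes over the floor. Cxcl10 had 28 reads in KO and 49 in WT, 3.38-fold lower (2.09 to 5.59), and Ccl5 42 and 35, 1.61-fold lower, with an interval of 0.999 to 2.59. Cxcl9 had 73 and 35 reads (log2 ratio 0.11), Cxcl16 49 and 18 (0.48), Ccl22 28 and 16 (-0.14) and Ccl25 27 and 18 (-0.35).

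Among transcription factors tied to homing receptors, 22 stayed within 1.5-fold in either direction. Of 37 measured, 10 were at least 1.5-fold lower and 5 at least 1.5-fold higher, against 5.51% and 7.43% of all genes over the floor, with a median of 0.10. The GC correction changed these counts to 7 and 3, and 3 of 37 higher is close to the share over all genes. Maf, a factor of intestinal Treg cells, was 4.55-fold lower (4.04 to 5.13), with 399 reads in KO and 939 in WT. Nfil3 was 3.08-fold lower (2.29 to 4.18). Ahr, the aryl hydrocarbon receptor, which drives Gpr15 in T cells, was 2.44-fold lower (2.06 to 2.89), with 251 reads in KO and 317 in WT. Vdr, whose ligand induces CCR10 in human T cells, had 32 and 39 reads (2.36-fold lower, 1.44 to 3.89). Tbx21, the gene of T-bet, the inducer of Cxcr3, had 83 and 85 reads, and its level was lower by 1.98-fold (1.45 to 2.71). Also lower by 1.5-fold or more were Rora (-0.77), Id2 (-0.64), Prdm1 (-0.61) and Hif1a (-0.60). With the GC trend removed, Id2 (-0.49), Prdm1 (-0.57) and Hif1a (-0.46) missed 1.5-fold.

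The 5 higher factors were the T cell receptor response gene Nr4a1 (0.93), Rara (0.83), Klf2 (0.77), Gata3 (0.67) and Bach2 (0.60). With the GC trend removed, Rara (0.52), Klf2 (0.41) and Bach2 (0.53) missed 1.5-fold, while Myb, at 0.51 as scaled, passed it at 0.59. Rara encodes a receptor for retinoic acid, the vitamin A product that induces Ccr9. It had 4218 reads in KO and 1224 in WT (1.78-fold higher, 1.67 to 1.90). Gata3, a factor that promotes Ccr4 and Ccr8 in Th2 cells, was 1.59-fold higher (1.48 to 1.70). The part of any of the listed factors in the receptor ratios was not tested. Batf, Runx1 and Ets1 were at 0.07, 0.06 and 0.01.

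Adhesion and surface genes of tissue Treg cells lay mainly with the lower receptors. Of 20 measured, 12 were at least 1.5-fold lower and 1 higher, against 5.51% and 7.43% of all genes over the floor, and the median was -0.88. The widest were the inhibitory receptor Tigit (-3.51), the IL-33 receptor Il1rl1 (-2.95), the epithelial integrin chain Itgae (-2.17), Klrg1 (-2.10), the integrin chain Itgb1 (-1.64) and the selectin ligand enzyme Gcnt1 (-1.45). Itgae had 230 reads in KO and 538 in WT. Integrin chains Itga4 and Itgb7, which form the gut homing integrin α4β7, were at -0.24 and 0.04. The higher one, the fucosyltransferase Fut4, had 36 reads in KO and 9 in WT, with an interval of the ratio from 0.978 to 4.88.

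**Figure D4:**
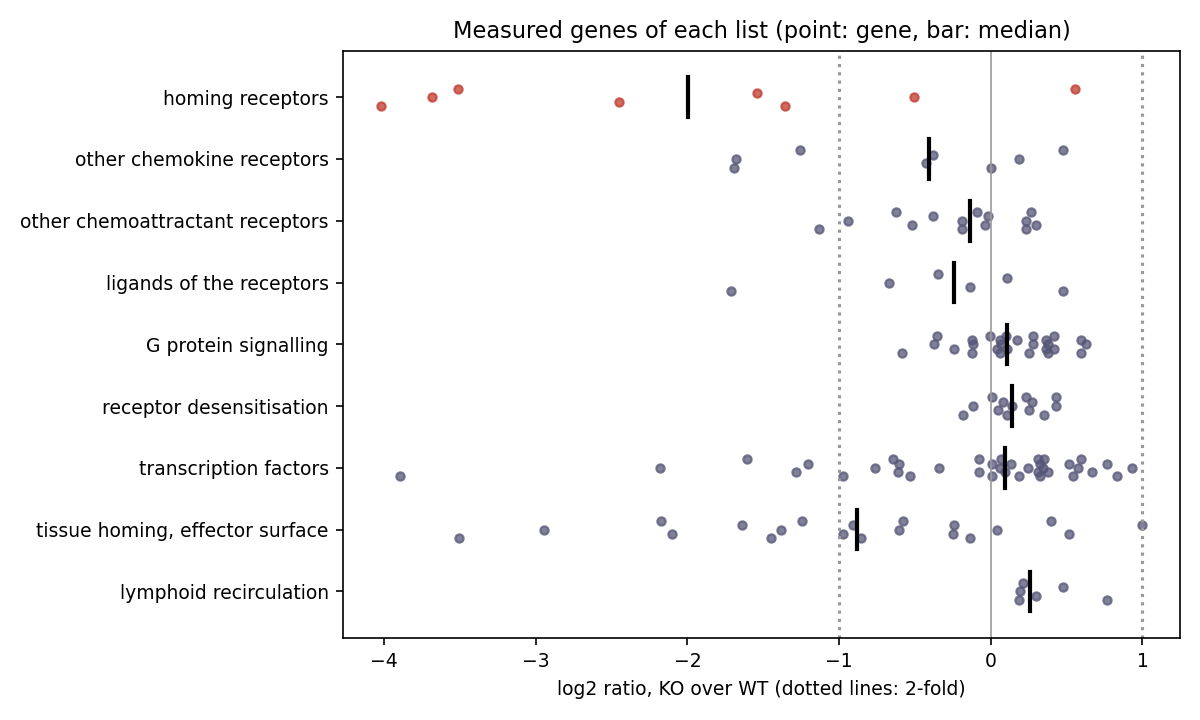
Log2 ratio of KO over WT for each measured gene of the 9 receptors (top row) and 8 further lists, with a bar at each list's median. The receptors have a median of -2.00, tissue homing and effector surface genes -0.88, and lymphoid recirculation genes 0.26.

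With a mean of 100 or more reads required, the genes nearest to Cxcr3 in ratio, the other receptors left aside, were Rnase4, Tigit, Gdpd3, Gbp2b and Il1rl1. Likeness is the absolute difference of log2 ratios over 2 libraries, and it ran from 0.21 for Rnase4 to 1.07 for Il1rl1. Ccr4, at -3.51, also lay within that range. Rnase4 had 24 reads in KO and 182 in WT.

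Both libraries carried the markers of Treg cells. All 9 were detected and summed to 6514 RPM in KO and 5299 in WT, with Foxp3 at 1285 and 732 and Cd4 at 2286 and 1991. Of the same list, Ctla4 stood lower in KO, at 86.4 RPM against 147 in WT, and Ikzf2 likewise at 198 against 331. Markers of the CD8 T cell, NK cell, dendritic cell and neutrophil lists summed to at most 40.4 RPM in either library, and Klra8 was at 0 in both. Erythroid markers summed to 5.17 RPM in KO and 14.1 in WT, from Alas2 (3.91 and 9.86) and Slc4a1 (1.26 and 4.29). Both globin genes of the list were at 0 in both libraries, where reads placed in several places were not counted. Of the stromal and endothelial list, Pdpn was at 0 in both and Pecam1, which T cells also express, made up nearly all of 318 and 306 RPM. The part of these cells in the receptor ratios was not tested. The ratio of all genes moved with GC content, from a median log2 ratio of -0.18 in the tenth of genes lowest in GC to 0.36 in the tenth highest. The receptors' transcripts ran from 39.4% GC (Ccr2) to 58.0% (Ccr10). With that trend removed, the log2 ratios were -4.07 for Cxcr3, -3.42 for Ccr4, -3.56 for Gpr15, -2.30 for Ccr2, -1.47 for Ccr6 and -1.16 for Cxcr6.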

How the data were processed

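TopHat2 2.0.3, HTSeq and mm10 are named in the submitters' processing notes; the sources used here do not give the strand setting or annotation. The authors deposited raw read counts per gene symbol, not normalized, for both libraries. Reads the counter placed outside genes or in several places (23.4% of listed reads in each library) were left out of library sizes. Counts were scaled with TMM factors of edgeR 4.0.16 (0.974 for KO, 1.03 for WT) to the mean effective library size, in R 4.3.3 and Python 3.11.15. Ratios were called at 2-fold, and in lists also at 1.5-fold, for genes averaging 20 or more counts. Intervals are exact conditional binomial for ratios, exact Poisson for levels and Clopper-Pearson for shares. Since a group is 1 library, tests were not run; edgeR and DESeq2 1.42.0 served for scaling alone. The interval code was run on simulated Poisson counts, which such intervals cover by construction. That check says nothing about variation between pools of mice. GENCODE M21 (GRCm38) gave positions, transcript lengths and GC content, matching 23708 symbols. The trend with GC content and length was removed by lowess (fraction 0.3), on the 99.6% of genes over the floor that have a value. The receptors and lists were chosen with earlier results of these data known. Named are all receptors, every measured member of a list of up to 12 and otherwise the 6 widest ratios, nearest neighbours, and genes singled out after their values were seen (Batf, Runx1, Ets1, Itga4, Itgb7, Rara, Gata3 and the remaining members of counts of 5 or fewer). The targeted gene and some members of the lists are not reported here by name.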

Additional observations from a re-analysis of the deposited data

How the results depend on the processing

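No paired analysis was possible because each group has 1 library, and no library could be left out. The 8 receptor ratios were computed with DESeq2 size factors, total-count scaling, pseudocounts of 0.5 and 5, other floors, the GC and length trend removed, and the KO library thinned to the WT depth. All 62 values kept their sign and lay within the counting interval of the main value. Part of this was fixed in advance, since a floor does not alter a gene's own ratio. The other scalings moved all ratios by nearly the same amount, a log2 shift of -0.007 for DESeq2 and -0.077 for total-count scaling. Thinning left Cxcr3 with 35 KO reads (14.8-fold lower) and Gpr15 with 6 (10.7-fold lower). Receptors at least 2-fold lower numbered 6 under each alternative, except 7 with no floor (Ccr10 added) and 4 with a floor of 100 reads, where Cxcr6 and Gpr15 were not counted. Of those 4, Cxcr3 (64 reads in KO, 546 in WT) and Ccr2 (83 and 238) passed that floor only through the WT library, where they were higher. The receptor median, -2.00 as scaled, was -2.45 with no floor and -1.88 with the GC trend removed. Over all genes, 227 were at least 2-fold lower and 173 higher. The counts were 1186 and 1027 with no floor and 95 and 62 with a floor of 100 reads, which change which genes are counted. With the GC trend removed 234 were lower and 108 higher, so 31.6% of 2-fold genes were higher, compared with 43.25% as scaled. Of the list counts and medians, 145 values stayed near the main one and 22 moved. The ligand list had no value with a floor of 100 reads. Depth limits Ccr10 and Gpr15 most, whose KO counts were 2 and 9.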
